A study of Mus musculus with 4 samples.

Results

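Genes better known from nerve cells than from the testis were followed here in mouse undifferentiated spermatogonia. They are 7 of the 27514 genes listed in all libraries, and they were chosen by their measured values: each differed between busulfan-treated and untreated libraries and between cells with Gfra1 and cells with Sox3. Nefm, Nefl, Chga and Nxph4 were higher after busulfan and in Gfra1+ cells, and are called stem-linked. Mobp, Sntg2 and Tubb2b were lower after busulfan and higher in Sox3+ cells, and are called progenitor-linked. Because these values picked the genes, they are described without a test, and tests are given only for splits of the cells that played no part in the choice. Such a split can still run along the Gfra1 or Sox3 differences that did, which is stated where it applies.

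Undifferentiated spermatogonia include stem cells, which maintain themselves, and progenitors, which are set to differentiate. GFRA1 is the receptor through which the niche factor GDNF acts on the stem cells, and SOX3 is a transcription factor of progenitors. Busulfan is an alkylating drug that kills most spermatogonia, after which surviving undifferentiated spermatogonia rebuild the pool. Neurofilament proteins form the core of the axonal cytoskeleton, chromogranin A is packed into dense-core secretory granules, neurexophilins are secreted ligands of neurexins, and MOBP is a protein of central nervous system myelin. In most tissues outside the nervous system the repressor REST, with corepressors such as the RCOR proteins and the histone-modifying enzymes they recruit, holds many neuronal genes down.

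The cells were sorted from testes of C57BL/6J mice aged 6 to 8 weeks as E-cadherin+, α6-integrin+ and c-KIT−, and each 10x droplet library pooled cells of 3 mice. In each of 2 experiments one library came from untreated mice (CTRL 1 and CTRL 2) and one from mice taken 10 days after 10 mg/kg busulfan (BU 1 and BU 2), so a group holds 2 libraries. Per the labels, experiment 1 used kit version 2 and experiment 2 version 3.1, and the gene tables list 27998 genes in experiment 1 and 31053 in experiment 2, so kit and experiment cannot be told apart. No allele or transgene is named for any group. A sorted pool cannot separate fewer cells of a kind from less RNA per cell except where the cells are first split by a marker, as below.

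After requiring more than 1000 genes and under 20% mitochondrial UMIs, 3101, 1120, 2008 and 1264 cells remained, in the order CTRL 1, CTRL 2, BU 1, BU 2. Wherever 4 values follow each other below without names, they are in that order. A UMI marks 1 captured RNA molecule. The median cell held 8051, 30845, 9847.5 and 34023 UMIs in the same order, so levels are given as CPM, the gene's UMIs scaled to a common total of all UMIs of the cells summed, and shares of cells after thinning each cell to 5000 UMIs. The 4 spermatogonia markers summed to 802, 757, 699 and 544 CPM over all cells, and the 8 somatic markers to 16.3, 164, 22.2 and 93.9. Such sums do not give the identity of single cells. CTRL 2 and BU 2 also held more RNA of later germ cells, with a summed level of 5 spermatid markers of 16969 and 8633 CPM against 2792 in CTRL 1 and 995 in BU 1. Before any result, 1 irregularity has to be stated. CTRL 2 and BU 2 shared 70 of their kept cell barcodes (677 of all deposited ones, against 11 for CTRL 1 and BU 1), and the 2 copies differed 53.9 to 82.7 times in UMIs, with the shallower copy in CTRL 2 for 45 barcodes and in BU 2 for 25. CTRL 1 and BU 1 shared 7 kept ones, whose copies differed at most 1.76 times, and CTRL 2 and BU 1 shared 1. Leaving out the shallower copies moved no log2 difference of the 7 genes in any fit by more than 0.0425 and changed none of their calls.

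The 7 genes lie on 5 chromosomes. In GENCODE M21 (GRCm38), Nefm spans bases 68082590 to 68124846 of chromosome 14 on the minus strand, and Nefl spans 68083863 to 68089095 of the same chromosome on the plus strand, inside the annotated span of Nefm. Of the 3380 exonic bases of Nefl, 1108 also lie in exons of Nefm, on the opposite strand. The droplet libraries keep the strand of the RNA, but how the counting treated such bases was not given in detail, so the small Nefl counts carry that uncertainty. Mobp overlaps a non-coding transcript of the same strand, Gm38642, over 2447 bases. Chga and Sntg2 are both on chromosome 12, at 102554969 to 102565028 (plus) and 30174482 to 30373375 (minus). Nxph4 is on chromosome 10 at 127525473 to 127534559 (minus), Mobp on chromosome 9 at 120149707 to 120181484 (plus) and Tubb2b on chromosome 13 at 34126748 to 34130466 (minus).

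RefSeq promoters (GRCm38.p6) were at hand for 3 of the 7 genes, and they are shown because a stem-linked and 2 progenitor-linked genes that moved in opposite directions can be set side by side. The letters run 5′ to 3′ on the gene's own strand and stop before the first transcribed base. Capitals mark the SOX motif AACAAAG (here on the opposite strand, as CTTTGTT) or the GC box GGGCGG. The stretches are chr9:120149492-120149706 (+), chr12:30373377-30373626 (−) and chr12:102554691-102554940 (+).
Mobp: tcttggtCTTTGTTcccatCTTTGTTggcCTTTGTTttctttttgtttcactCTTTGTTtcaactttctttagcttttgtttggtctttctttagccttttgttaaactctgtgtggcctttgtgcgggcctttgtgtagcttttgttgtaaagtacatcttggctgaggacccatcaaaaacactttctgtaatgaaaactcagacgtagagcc
Sntg2: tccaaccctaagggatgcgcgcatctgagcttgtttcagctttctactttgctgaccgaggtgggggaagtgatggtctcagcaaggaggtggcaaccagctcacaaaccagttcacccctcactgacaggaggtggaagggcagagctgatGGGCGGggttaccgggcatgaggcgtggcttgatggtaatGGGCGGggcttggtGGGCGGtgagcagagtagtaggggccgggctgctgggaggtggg
Chga: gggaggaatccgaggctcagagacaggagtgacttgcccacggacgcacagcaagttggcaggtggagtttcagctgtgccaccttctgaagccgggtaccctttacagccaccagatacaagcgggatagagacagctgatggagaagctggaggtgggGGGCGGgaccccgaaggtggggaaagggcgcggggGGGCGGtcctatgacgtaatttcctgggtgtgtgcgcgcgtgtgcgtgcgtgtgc

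The 3 promoters differed in composition. Over the full 300 bases of each RefSeq window, Mobp was 43.3% G and C, against 62% for both Sntg2 and Chga, with a median of 52.7% over all 32851 windows. The Mobp window held 4 copies of AACAAAG, all on the opposite strand, and no other window of the 32851 held as many, while 5.85% held at least 1. Sntg2 had 4 GC boxes and Chga 2, where 5.49% of windows held at least 4, 19.5% at least 2 and 35.7% at least 1. Chga also held 1 TATAAA, which 13.6% of windows hold. None of the 3 held the exact letters TGACGTCA of the cyclic AMP response element (1.79% of windows) or the T-box motif AGGTGTGA (1.28%). Nor did any hold TTCAGCACC, the left part of the RE1 element bound by REST (0.371%). Only exact letters were counted, and the Chga stretch holds TGACGTAA, a near match to the cyclic AMP response element. Both strands were searched, none of the 6 motifs contains another, and the motifs were chosen after the promoters had been read, so the counts describe letters and nothing more.

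Among the stem-linked genes, Nefm encodes the medium neurofilament subunit. Over all cells it read 24.9, 43.8, 136 and 236 CPM. Both busulfan libraries were above both untreated ones, and the mean log2 difference over the 2 experiments was 2.42 ± 0.00752 (SD, n = 2 experiments), or 5.35-fold. In Gfra1+ Sox3- cells Nefm stood at 82.4 and 226 CPM untreated and at 211 and 407 treated, where the untreated library of experiment 2 lay above the busulfan library of experiment 1. Its level in Gfra1- Sox3+ cells was 6.002, 10.001, 18.7 and 60.5 CPM, and cells with both markers lay in between in every library. Within each experiment the busulfan library was the higher one in each of these classes.

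Nefl encodes the light neurofilament subunit, on which neurofilaments are built. Over all cells it was low, at 2.41, 3.102, 11.01 and 13.6 CPM, a 3.93-fold higher mean after busulfan. In Gfra1+ Sox3- cells it read 10.1, 14.8, 16.9 and 20.7 CPM. The gap between the groups there was narrow, with a log2 difference of 0.71 in experiment 1 and 0.47 in experiment 2. The groups overlapped in Gfra1- Sox3+ cells, with 0.576 and 1.07 CPM untreated and 1.03 and 3.76 after busulfan.

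Chga encodes chromogranin A, the granule protein from which several peptides are cut. It read 7.66 and 8.89 CPM over all untreated and 41.7 and 47.4 over all treated cells, 5.14-fold higher on the mean log2 scale. In Gfra1+ Sox3- cells it read 18.7 and 29.1 CPM untreated against 68.3 and 67.4 after busulfan. Here the 2 busulfan libraries were nearly equal and the groups were well apart, at a log2 difference of 1.84 in experiment 1 and 1.20 in experiment 2. Without treatment the Gfra1- Sox3+ cells held 4.03 and 3.93 CPM, and with it 11.03 and 20.1. Cells with over 2% of UMIs in spermatid markers held 3.67, 8.74, 14.6 and 18.2 CPM of Chga. In CTRL 1, BU 1 and BU 2 the Gfra1- Sox3+ level lay within the exact 95% Poisson interval of those cells. In CTRL 2 it lay below that interval (5.98 to 12.3). The part of free RNA in the Chga levels of Gfra1- Sox3+ cells was not tested.

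Nxph4 encodes a neurexophilin, one of a small family of secreted glycoproteins. It stood at 2.34, 2.66, 10.5 and 21.7 CPM over all cells, 5.21-fold higher after busulfan. In Gfra1+ Sox3- cells it was at 7.68, 11.7, 18.6 and 33.6 CPM, without overlap between the groups. Among Gfra1- Sox3+ cells the 2 experiments went opposite ways, with 1.32 CPM untreated against 0.770 treated in experiment 1 and 1.12 against 7.30 in experiment 2. The value of 0.770 rests on 3 UMIs.

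Among the progenitor-linked genes, Mobp encodes the myelin-associated oligodendrocyte basic protein. Over all cells it read 34.6 and 21.0 CPM untreated and 2.67 and 1.66 treated, a 10.5-fold lower mean. The untreated libraries differed from each other far less than from the treated ones. In Gfra1- Sox3+ cells, where Mobp was highest, it read 48.6 and 32.9 CPM untreated and 5.90 and 4.65 treated. In Gfra1+ Sox3- cells it was low, at 3.996, 1.82, 0.739 and 0.804 CPM.

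Sntg2 encodes gamma-2 syntrophin, an adaptor that links membrane proteins to the dystrophin complex. Its level over all cells was 25.02 and 18.5 CPM untreated and 2.62 and 2.21 after busulfan, 7.57-fold lower. In Gfra1- Sox3+ cells it was 36.4 and 28.3 CPM untreated against 6.41 and 7.52 treated. Gfra1+ Sox3- cells held 2.77, 1.82, 0.246 and 0.710 CPM, the value in BU 1 being the lowest, with a UMI in 2 of 766 cells. Sntg2 was not confined to spermatogonia. Cells with over 0.1% of UMIs in somatic markers held 0, 16.1, 24.9 and 13.2 CPM, on 0, 9, 2 and 13 UMIs. In both treated libraries these values lay above those of the Gfra1- Sox3+ cells. The part of somatic RNA in the treated Sntg2 levels was not tested.

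Tubb2b encodes a beta-tubulin that is abundant in developing neurons. It read 27.3 and 17.3 CPM over all cells of the untreated libraries and 2.72 and 2.50 of the treated ones, 7.16-fold lower. In Gfra1- Sox3+ cells it read 39.4 and 26.6 CPM untreated and 5.39 and 5.64 treated. Tubb2a is a close copy of Tubb2b, and reads that both could have given are counted for neither or are split in a way the sources used here do not state, so the level of Tubb2b is uncertain to that extent.

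Each of the 7 genes was chosen by its difference between these groups, so a lack of overlap over all cells or within a class of cells is no result. The share of all genes without overlap was not counted, over all cells or in any class. With the experiment as a replicate block, edgeR called 258 of the 17354 genes tested between busulfan and untreated libraries, or 1.49%, and with treatment alone it called 0 (0%), with 926 at an unadjusted p under 0.05 and 112 called by DESeq2. The choice of genes used this contrast, so nothing is read from their place in it.

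**Figure D1:**
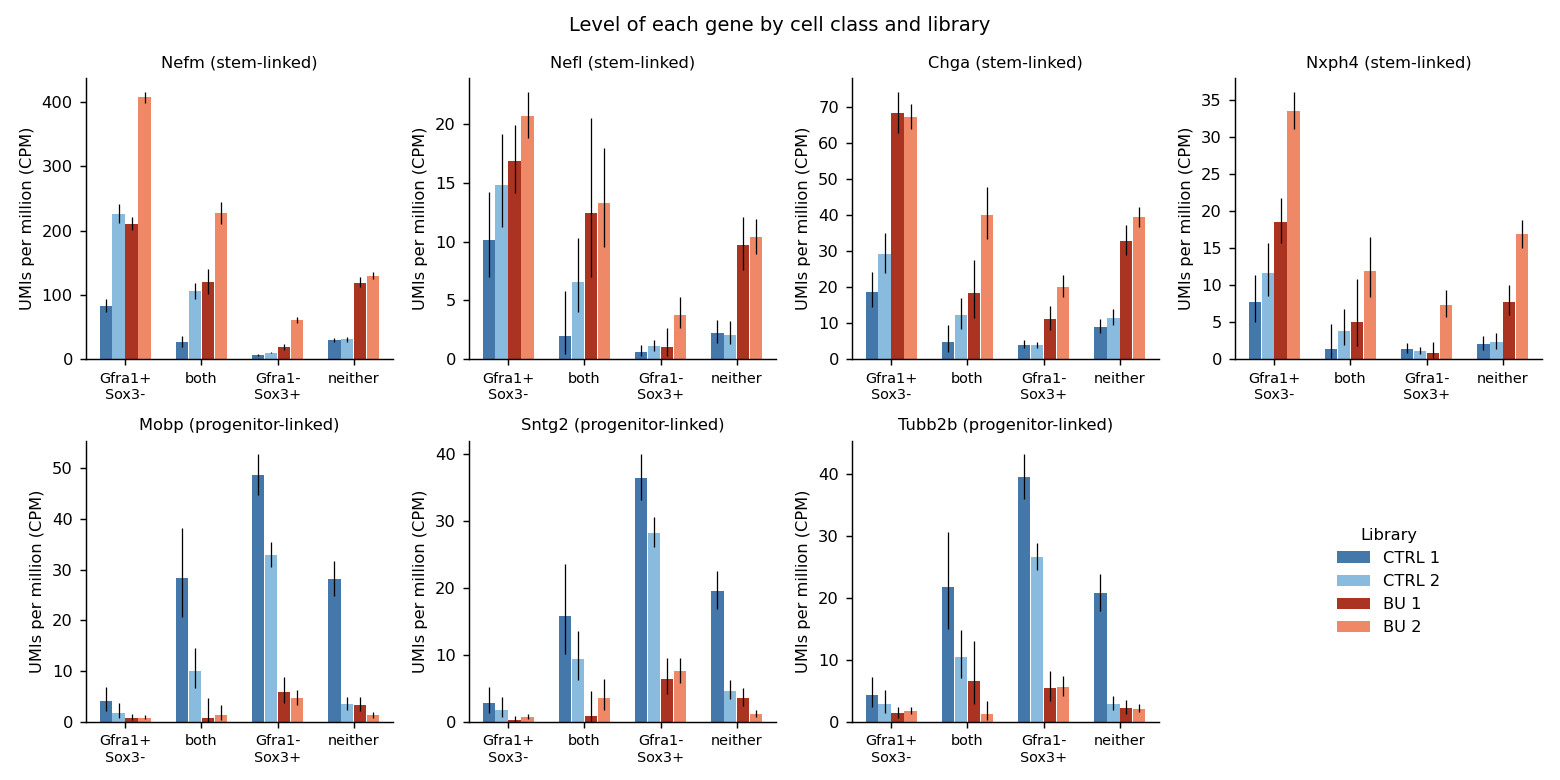
Level of each of the 7 genes (CPM, linear axis from 0) in cells split by Gfra1 and Sox3, with 1 bar per library and exact 95% Poisson intervals that cover counting error only. The stem-linked genes stand highest in Gfra1+ Sox3- cells (Nefm reaches 407 CPM in BU 2) and the progenitor-linked genes in Gfra1- Sox3+ cells of the untreated libraries (Mobp reaches 48.6 CPM in CTRL 1).

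A cell was called positive for a gene when the natural logarithm of 1 plus its UMIs per 100000 was above 2. In experiment 1 a single UMI passed that threshold in 96.9% of cells of CTRL 1 and 90.3% of BU 1, but in experiment 2 in 16.96% of CTRL 2 and 13.9% of BU 2. Most cells of experiment 2 thus needed more than 1 UMI, at the same threshold relative to depth. By this rule Gfra1+ cells made up 18.9% and 19.1% of untreated and 43.1% and 41.9% of treated cells, and Sox3+ cells 47.4% and 57.7% against 23.6% and 21.0%. The mix of classes thus differed between the groups along with the genes. Reweighting the untreated levels of the 4 Gfra1 and Sox3 classes by the treated library's share of UMIs in each class gave 45.3 CPM of Nefm in experiment 1, between the measured 24.9 and 136. In experiment 2 it gave 110 CPM, between 43.8 and 236. For Mobp the reweighted level was 22.6 CPM in experiment 1, against 34.6 and 2.67 measured, and 8.27 in experiment 2, against 21.0 and 1.66. For each of the 7 genes, in both experiments, the reweighted level lay between the 2 measured ones, with log2 shifts of 0.60 to 1.33 for the stem-linked genes, where the measured ones were 2.13 to 3.03. In cells positive for neither Gfra1 nor Sox3 the stem-linked genes were 3.42-fold (Chga) to 4.55-fold (Nxph4) higher after busulfan. The experiments differed for the progenitor-linked genes there: Mobp read 28.1 CPM untreated and 3.35 treated in experiment 1 but 3.47 and 1.26 in experiment 2, and Tubb2b 20.7 and 2.19 in experiment 1 but 2.82 and 2.09 in experiment 2. These are the classes and values used to choose the genes, so the arithmetic is a description.

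**Figure D2:**
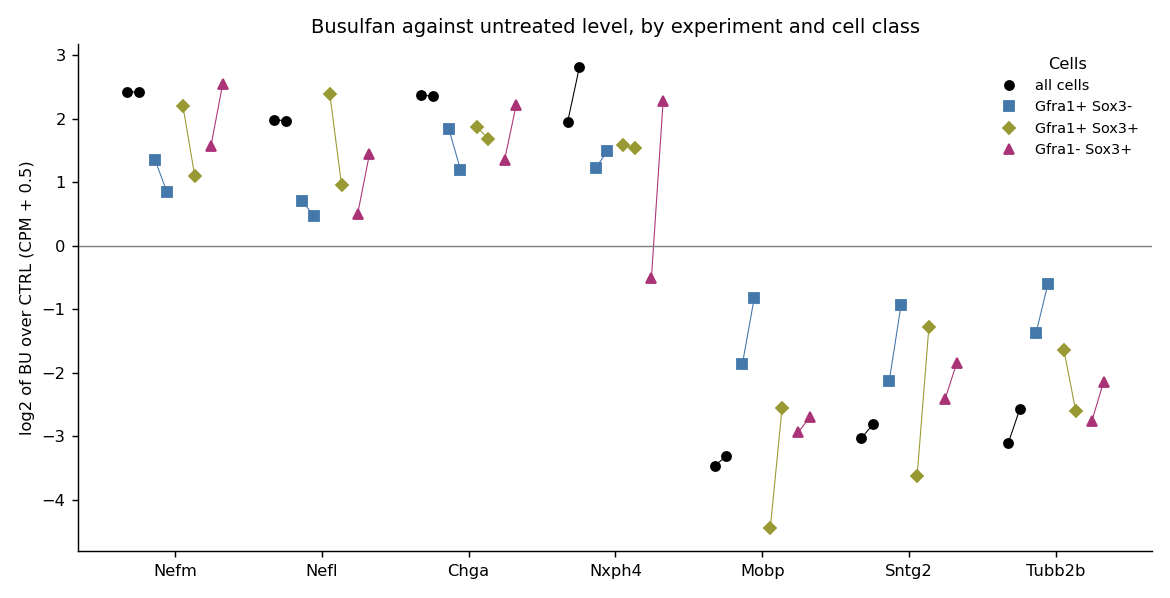
Log2 of the busulfan over the untreated level for each gene, with the left point of each joined pair from experiment 1 and the right from experiment 2, over all cells and in 3 classes of cells (0.5 CPM added before the logarithm). Within Gfra1+ Sox3- cells the differences keep the direction seen over all cells but are smaller, 1.35 and 0.85 for Nefm against 2.42 and 2.41 over all cells. The progenitor-linked genes are near the floor in these cells, so the size of their differences there depends on the 0.5 CPM added.

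Cells with at least 1 UMI after thinning to 5000 UMIs were also counted, given here for Nefm in Gfra1+ and Mobp in Sox3+ cells. Nefm was seen in 22.1% (18.6 to 25.9) and 36.8% (30.3 to 43.8) of untreated Gfra1+ cells and in 50% (46.6 to 53.4) and 64.0% (59.7 to 68.1) of treated ones. The ranges are exact 95% binomial intervals and cover counting error only. Mobp was seen in 19.8% (17.8 to 22.0) and 14.1% (11.5 to 17.1) of Sox3+ cells untreated and in 3.00% (1.65 to 4.98) and 2.69% (1.09 to 5.47) treated. Thinning left out 276, 114, 80 and 95 cells under 5000 UMIs. Before it, Nefm was found in 28.0%, 64.0%, 65.8% and 87.9% of Gfra1+ cells and Mobp in 31.2%, 50.2%, 4.65% and 12.8% of Sox3+ cells. Free RNA can give a cell a UMI of a gene it does not use, and cells rich in spermatid markers served as a rough guide to it. They are no clean measure of free RNA, since in BU 2 their 95 Nefm UMIs, not thinned, lay in 12 of 74 cells. Nefm was seen there in 0 of 41, 0 of 89, 1 of 9 and 1 of 58 thinned cells, and Mobp in 1 of 41, 1 of 89, 0 of 9 and 1 of 58. The exact 95% intervals of the first 2 shares of Nefm reach 8.60% and 4.06%, and that of the third 48.2%. The shares of Gfra1- Sox3+ cells with Nefm in CTRL 1, CTRL 2 and BU 1, 2.19%, 3.57% and 6.81%, lie within those limits, so the thinned shares do not tell them from the spermatid-rich cells. By level, Nefm in the spermatid-rich cells was 7.34 CPM (2.00 to 18.8, exact 95% Poisson interval), 1.91 (0.769 to 3.94), 36.4 (11.8 to 85.0) and 36.8 (29.8 to 45.0). In CTRL 2 and BU 2 the Gfra1- Sox3+ cells lay above that, at 10.001 (8.73 to 11.4) and 60.5 (55.6 to 65.8) CPM, while in CTRL 1 and BU 1 the intervals overlapped. In BU 2 the share was 15.2% (10.6 to 20.9) against 1.72% (0.0436 to 9.24) in the spermatid-rich cells, with median depths of 37179 and 35104 UMIs before thinning, and before it the shares were 34.1% and 16.2%.

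**Figure D3:**
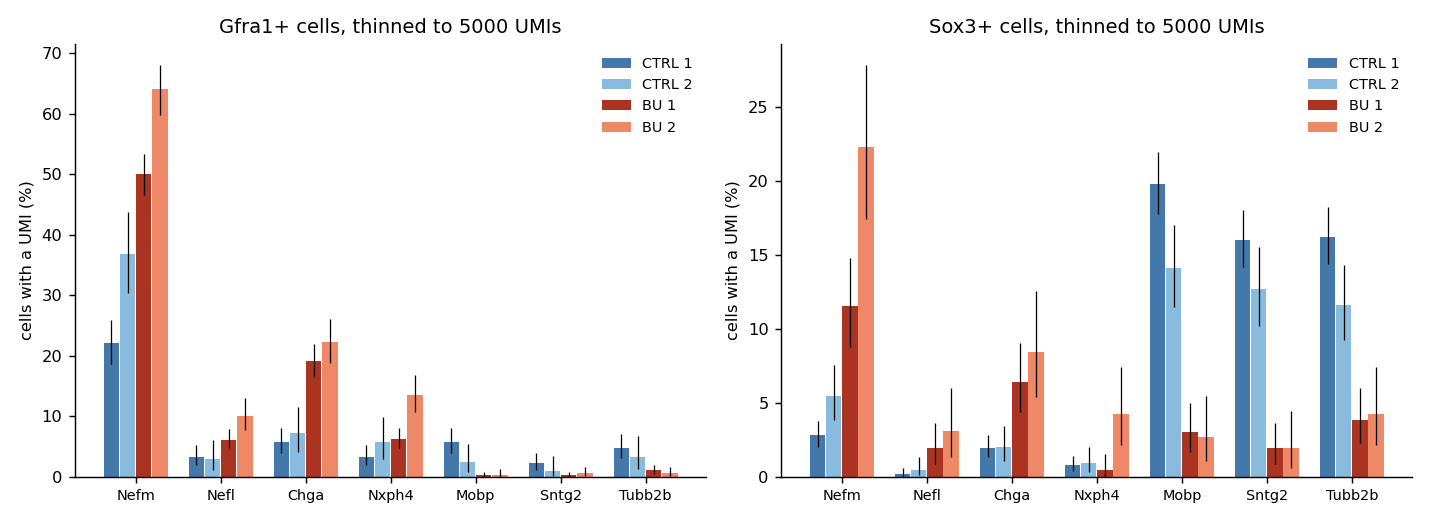
Share of Gfra1+ cells (left) and Sox3+ cells (right) with at least 1 UMI of each gene after every cell was thinned to 5000 UMIs, by library, with exact 95% binomial intervals. Nefm is seen in 22.1% to 64.0% of Gfra1+ cells, and Mobp in 19.8% and 14.1% of untreated against 3.00% and 2.69% of treated Sox3+ cells.

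The 2 sets seldom met in one cell. At 5000 UMIs per cell, 11.5%, 15.2%, 41.8% and 51.7% of cells held UMIs of stem-linked genes alone, and 29.5%, 21.0%, 3.06% and 2.40% of progenitor-linked genes alone. Both were found in 0.991%, 0.994%, 0.674% and 0.855%, where independence would give 3.82%, 3.56%, 1.58% and 1.71%. Within the stem-linked set the genes met often. In BU 2, Nefm was seen in 63.2% of cells with Chga and in 38.3% of cells without it, and in 71.9% of cells with Nxph4 against 39.2% of the others. In CTRL 1, Mobp was seen in 26.7% of cells with Sntg2 and 12.9% of cells without, while Nefm and Mobp met in 3 cells where 35.7 were expected if independent. The genes were chosen by their difference between Gfra1+ and Sox3+ cells, so such shares are given as a description. How far that difference accounts for them was not tested.

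**Figure D4:**
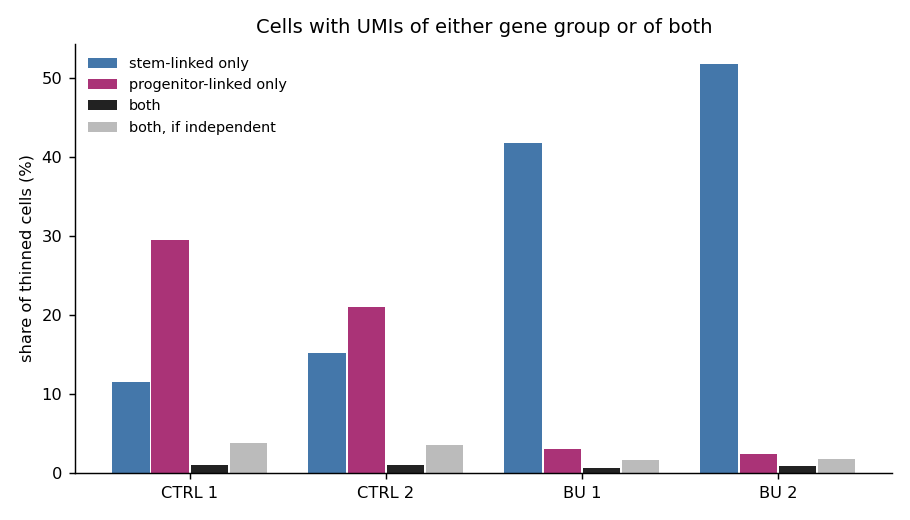
Share of thinned cells (5000 UMIs each) in each library with UMIs of the 4 stem-linked genes only, of the 3 progenitor-linked genes only, or of both, beside the share with both that independence would give. Cells with both make up 0.674% to 0.994%, below the 1.58% to 3.82% of independence in every library.

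The genes whose levels ran most like those of Nefm over 16 profiles (4 libraries by 4 classes) were Lhx1, a homeobox gene of stem cells, with a Pearson r of 0.960, followed by Mpzl2, Gsta4, Rpl39 and Nid1, at 0.957 down to 0.940. Most like Mobp were Hspg2 (0.975), Cthrc1, Gbp2, Apba2 and Pgls (0.949). Chga was 20th for Nefm among 9225 genes, at 0.918, and Nefm and Mobp ran against each other at −0.860. The profiles share libraries, depth and the very classes used for the choice, so r describes likeness and nothing else.

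The first split that the choice did not use was by Eomes, a T-box transcription factor found in part of the Gfra1+ stem cells. Within Gfra1+ cells, all 4 stem-linked genes were higher in Eomes+ cells and 2 of the 3 progenitor-linked genes were lower (edgeR quasi-likelihood test on UMI sums, library as a term, Benjamini-Hochberg adjusted over 13005 genes). Of all genes tested, 6.79% passed, 385 upward and 498 downward. The smallest class, the Eomes+ cells of CTRL 2, held 25 cells.

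Nefm read 53.7, 150, 175 and 354 CPM in Eomes- and 111, 387, 275 and 502 CPM in Eomes+ cells. It was the higher of the 2 in every library, with a log2 difference of 0.83 ± 0.0984 (SE, edgeR adjusted p = 3.47e-06). Chga was likewise higher in 4 of 4 libraries, by 0.91 ± 0.145 (edgeR adjusted p = 0.000159). Nefl was higher in 4 of 4, by 0.75 ± 0.169 (edgeR adjusted p = 0.00529). Nxph4 rose in 3 of 4, by 0.81 ± 0.181 (edgeR adjusted p = 0.00491). In CTRL 1 it went the other way, on 4 UMIs in the Eomes+ cells.

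Mobp gave 53 UMIs in Eomes- and 3 in Eomes+ cells of CTRL 1, 36 and 0 in CTRL 2, 7 and 0 in BU 1, and 19 and 2 in BU 2. It was lower in all 4 libraries (edgeR adjusted p = 0.0194), and with libraries at 0 the fitted log2 value of −2.18 ± 0.576 depends on the prior count. Tubb2b was lower in 4 of 4 libraries, by −1.37 ± 0.418 on the log2 scale (edgeR adjusted p = 0.0472). Sntg2 pointed the same way in 4 of 4 but did not pass (edgeR adjusted p = 0.0898), on 4, 0, 0 and 1 UMIs in the Eomes+ cells.

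The Eomes+ and Eomes- cells differed in more than Eomes, and Sox3 and Gfra1, by which the genes were chosen, were among the differences. Gfra1 was higher in Eomes+ cells in 4 of 4 libraries, by 0.0787 to 0.353 on the log2 scale. The split thus ran partly along the choice, and its calls are no independent support for the stem-linked and progenitor-linked sets. Eomes+ cells held more Lhx1 (1.19 on the log2 scale), Egr2 (0.73) and Id4 (0.64), genes of stem cells, and less Sox3 (−0.996) and Upp1 (−1.89), genes of progenitors: 5 of 6 tested stem cell markers were higher and 5 of 7 progenitor markers lower. They also held less RNA of other cells, with summed somatic markers of 3.41 to 7.90 CPM against 20.6 to 139 in Eomes- cells, and summed spermatid markers of 306 to 816 against 552 to 2657. Its part in the result was not tested. An alternative left out cells with over 2% of UMIs in spermatid markers or over 0.1% in somatic markers. The calls of all 4 stem-linked genes, of Mobp (edgeR adjusted p = 0.0202) and of Tubb2b (0.0443) remained in it. Other RNA spread thinly over the kept cells stays in that fit, so it does not decide the question. Of the 7 genes, Nefm alone passed under all 13 alternatives. Classes set after thinning ended the calls of Chga (edgeR adjusted p = 0.396), Nxph4 (0.0540), Mobp (0.867) and Tubb2b (0.706), and DESeq2 those of Nxph4 (0.122), Mobp (0.156) and Tubb2b (0.323). Tubb2b lost its call in 8 of 13 alternatives and Mobp in 5 of 12. The calls of Nefl without BU replicate 2 (edgeR adjusted p = 0.0600), of Nxph4 without BU replicate 1 (0.0856) and of Mobp without CTRL replicate 2 (0.0580) or BU replicate 1 (0.0704) were lost, and that of Tubb2b was lost without any 1 of the 4 libraries (0.112 to 0.166). With the replicate block of condition and experiment in place of the library, edgeR's adjusted p was 0.0801 for Nefl, 0.153 for Nxph4, 0.169 for Mobp and 0.143 for Tubb2b.

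Cell division gave a second split. Gfra1+ cells with at least 1 UMI of 7 mitotic markers after thinning were called cycling, a loose class that took in 426 of 520, 149 of 209, 760 of 848 and 446 of 525 cells. Cycling cells held more Nefm and Chga, 2 of the 7 genes, and 16.2% of the 12583 genes tested differed (885 higher, 1148 lower). Nefm read 60.8, 94.4, 130 and 264 CPM in non-cycling and 65.5, 204, 205 and 397 CPM in cycling cells. It was higher in 4 of 4 libraries, though barely so in CTRL 1, with a log2 difference of 0.71 ± 0.118 (SE, edgeR adjusted p = 0.00308). Chga was higher in 4 of 4, by 0.77 ± 0.167 (edgeR adjusted p = 0.0119). Nefl, at 0.63 ± 0.252, and Nxph4, at 0.68 ± 0.329, did not pass (edgeR adjusted p = 0.115 and 0.192), and neither did any progenitor-linked gene (0.538 to 0.956). Sox3 was higher in cycling cells in 4 of 4 libraries, by 0.0326 to 0.848 on the log2 scale. Gfra1 was lower in 4 of 4, at −0.315 to −0.207, so this split too was not free of the choice.

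Non-cycling Gfra1+ cells carried more RNA of other cells in all libraries: the 5 spermatid markers summed to 1335 to 7774 CPM in them and to 416 to 747 in cycling cells, and the somatic markers to 36.1 to 963 against 7.92 to 33.4. Without the cells rich in such markers Nefm still passed and Chga, at 0.42, did not (edgeR adjusted p = 0.0618); without CTRL replicate 2 Chga was lost as well (0.103) and the count of genes called fell from 2033 to 466, while without CTRL replicate 1 Nxph4 passed (0.0298). Without BU replicate 2 the count was 841. The difference between the 2 groups in the effect of cycling was tested as an interaction: edgeR called 0 of the 7 genes and 0 of 12583 genes (0%), with 205 genes at an unadjusted p under 0.05 and 0 called by DESeq2. For Nefm the interaction was −0.07 ± 0.263 on the log2 scale and for Chga −0.61 ± 0.347, errors that leave room for sizeable differences.

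The last split was by Kit, the receptor that marks the entry into differentiation, within Sox3+ Gfra1- cells. The sort was for c-KIT− cells, and KIT protein in the cells with Kit RNA was not measured here. Sox3 was lower in Kit+ cells in 4 of 4 libraries, at −0.432 to −0.0521 on the log2 scale, and Gfra1 in 3 of 4. The Kit split thus also ran partly along the choice, and its calls are no independent support for the 2 sets. All 3 progenitor-linked genes were lower in Kit+ cells, and so was Nefm (edgeR, adjusted over 12395 genes, of which 28.6% passed, 1552 upward and 1995 downward). The share of genes called is high here, and the Kit+ class was small in the untreated libraries, with 21 and 16 cells there against 128 and 79 in the treated ones. Without BU replicate 2 the count fell from 3547 to 1438.

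Sntg2 read 36.9, 28.8, 8.65 and 11.4 CPM in Kit- and 9.89, 8.73, 2.22 and 2.34 CPM in Kit+ cells. It fell in each library by a similar factor, with a log2 difference of −2.16 ± 0.321 (SE, edgeR adjusted p = 3.40e-07), although the Kit+ values of CTRL 1, CTRL 2 and BU 1 rest on 2, 5 and 3 UMIs. Tubb2b was lower in 4 of 4 libraries, at 39.6, 27.1, 7.47 and 8.68 CPM in Kit- and 24.7, 6.98, 1.48 and 1.56 in Kit+ cells (log2 difference −2.04 ± 0.343, edgeR adjusted p = 4.42e-06). Mobp was lower in 4 of 4 but by less, −0.99 ± 0.291 (edgeR adjusted p = 0.00704), and lost the call without CTRL replicate 2 (0.210) and with the replicate block in place of the library (0.0519).

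Nefm gave 72 UMIs in Kit- and 1 in Kit+ cells of CTRL 1, 224 and 0 in CTRL 2, 68 and 5 in BU 1, and 464 and 83 in BU 2. It was lower in 4 of 4 libraries (log2 difference −2.32 ± 0.255, edgeR adjusted p = 1.08e-10), at 6.02, 10.3, 26.7 and 89.5 CPM in Kit- and 4.94, 0, 3.69 and 21.5 CPM in Kit+ cells. In CTRL 1 the difference was only −0.26 on the log2 scale and rests on 1 UMI, and with a library at 0 the fitted value depends on the prior count. Chga, at −0.28 ± 0.306, and Nefl, at −0.76 ± 0.702, did not pass (edgeR adjusted p = 0.535 and 0.442), and Nxph4 had too few UMIs to be tested. Stem cell markers were lower in Kit+ cells too (5 of 6 tested), as were 4 of 6 tested progenitor markers, while Stra8, a gene of the entry into meiosis and differentiation, was higher by 2.32. Kit+ cells held less RNA of other cells, with summed spermatid markers of 247 to 562 CPM against 334 to 1406, and its part in the calls was not tested. The calls of Nefm, Mobp, Sntg2 and Tubb2b remained without cells rich in such markers, a filter that leaves RNA spread thinly over the kept cells.

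**Figure D5:**
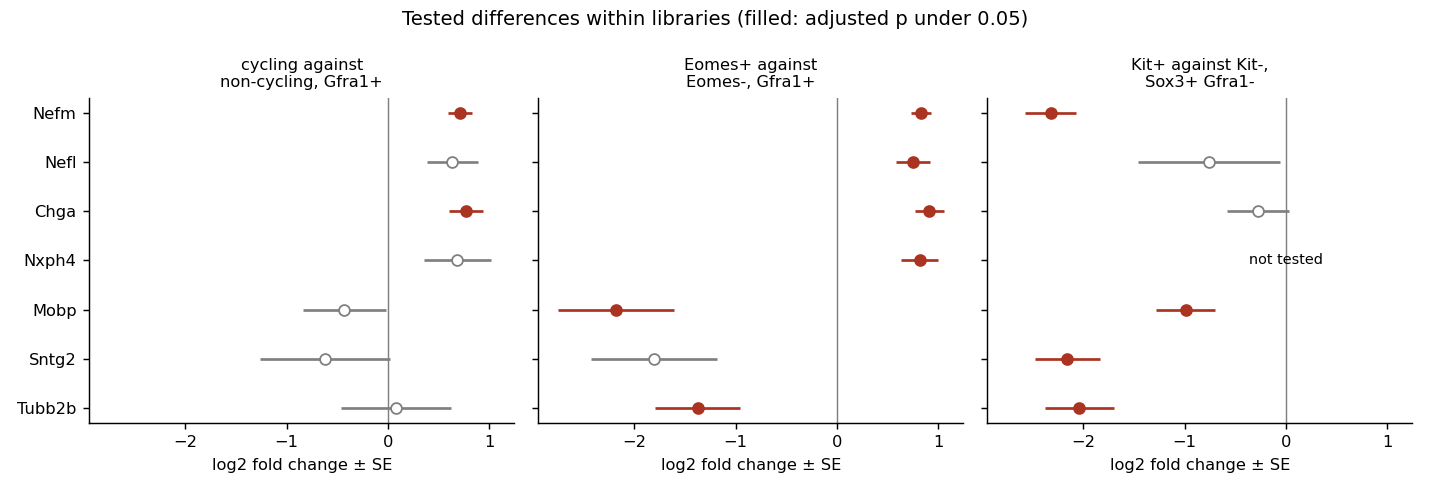
Log2 differences with SE for the 7 genes in the 3 splits of cells that were not used to choose them (edgeR, library as a term), with filled points where the adjusted p was under 0.05. The stem-linked genes lie near 0.8 in the Eomes split, and Nefm, Mobp, Sntg2 and Tubb2b lie below 0 in the Kit split.

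Genes of the same families were read from lists. Their busulfan differences over all cells are given from the edgeR fit with the replicate block, which called 1.49% of all genes, so few calls would be made in lists of this size at that rate. Apart from the members, none of 7 tested intermediate filament genes, 0 of 6 neurexophilin, neurexin and neuroligin genes, 0 of 7 myelin genes, 0 of 10 genes of the dystrophin complex and 0 of 11 tubulins passed. The medians of these families ran from −0.39 to 0.16 on the log2 scale, against 0.04 over all genes tested. Nefh, the heavy neurofilament subunit, read 17.1 and 34.9 CPM untreated and 26.0 and 31.9 treated, so its groups overlapped. Those of Nefm and Nefl did not, but both were chosen by this difference, so nothing is read from the contrast with Nefh. Of 6 tested genes of granins and their processing besides Chga, Pcsk1n, which encodes an inhibitor of a prohormone convertase, was higher (1.77 ± 0.278, edgeR adjusted p = 0.0364).

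Broader lists of neuronal genes were read from the same fit, against the same 1.49% of all genes. Of 10 tested pan-neuronal markers, Snap25, a protein of synaptic vesicle fusion, was higher after busulfan (2.40 ± 0.373, edgeR adjusted p = 0.0357) and the other 9 did not pass. Of 7 tested oligodendrocyte markers, Sox10, a transcription factor of oligodendrocytes and neural crest, was lower (−2.23 ± 0.346, edgeR adjusted p = 0.0355). The 12 pan-neuronal markers summed to 23.8 and 42.6 CPM in the untreated and 28.6 and 41.8 in the treated libraries, with Tubb3 at 6.57 to 12.2 and Rbfox3 at 0.477 to 2.11. Of the 10 genes of REST and its corepressors, all tested, Ehmt2, a histone H3 lysine methyltransferase, was lower (−1.14 ± 0.194, edgeR adjusted p = 0.0452), and Rest itself read 180 and 346 CPM untreated and 388 and 379 treated.

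Split by class, the same comparison called 0 of 13632 genes in Gfra1+ cells (586 at an unadjusted p under 0.05, 15 by DESeq2) and 10, or 0.0734%, with the block, with none of the family genes among them. In Sox3+ cells it called 0 of 14447 (2031 at an unadjusted p under 0.05, 323 by DESeq2) and 1061, or 7.34%, with the block. There Pcsk1n (3.08) and Elavl3 (2.75), an RNA-binding protein of neurons, were higher, Ina (−0.96), another neurofilament subunit, and Mbp (−1.18), a myelin protein, were lower, and Tubb4b (1.05) and Tubb5 (−0.82), both beta-tubulins, went opposite ways. Of 9 tested genes of the dystrophin complex other than Sntg2, Dmd (1.74), which encodes dystrophin, was higher, and Dtna (−0.95) and Sgce (−1.96) were lower. Snap25 (2.04) was higher and Sox10 (−1.53) and Ehmt2 (−0.90) were lower. Besides Elavl3 and Snap25 no pan-neuronal marker passed there, and the others pointed both ways, such as Map2 (1.08) and Syt1 (−1.16). Kit, at 3.79, and Stra8, at 2.00, were higher in the same cells, so the treated Sox3+ cells also held more RNA of genes of the entry into differentiation. Of 8 tested stem cell markers 3 were higher too, Lhx1 by 2.91. Every tested progenitor marker was lower in these cells: Upp1 (−2.90), Neurog3 (−1.72), Piwil4 (−1.69), Ddit4 (−1.61), Rarg (−1.38) and Sohlh1 (−0.69). The lower levels of Mobp, Sntg2 and Tubb2b in treated Sox3+ cells were thus shared by that list. In the Kit split Pcsk1n (2.34) and Elavl3 (2.66) were higher, and Mbp (−1.47), Tubb5 (−1.02) and Tubb2a (−0.70) were lower, by edgeR at adjusted p values under 0.05. The part of the larger Kit+ share in the busulfan difference of Sox3+ cells was not tested.

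In the splits not used for the choice, related genes were again mixed. Between Eomes+ and Eomes- cells none of 11 tested tubulins other than Tubb2b and none of 5 tested myelin genes other than Mobp passed, while Snap25 (1.35) and Nrxn2 (0.65), a neurexin, were higher. Of 4 tested genes of granins and their processing other than Chga, Cpe (−5.95), a carboxypeptidase, and Scg5 (−3.47) were lower, where Chga was higher, and Rest was higher by 0.30. Of 5 tested intermediate filament genes other than Nefm and Nefl, Vim alone passed and was lower. The somatic markers Cd74 (−6.63), Aldh1a1 (−5.34), Wt1 (−3.27) and Sox9 (−1.15) were called lower in Eomes+ cells too, while Star (−0.61) did not pass. Whether Cpe, Scg5 and Vim followed somatic RNA in the Eomes- cells was not tested. Cycling cells held more Tubb4b (0.95), Tubb5 (0.45), Tubb6 (1.77) and Tubg1 (0.60) and less Tuba1a (−1.79), so 4 of 10 tested tubulins other than Tubb2b were higher and 1 lower. Between Kit+ and Kit- cells 2 of those 10 were higher and 4 lower, and of 5 intermediate filament genes Nefh (0.88) and Nes (0.86) were higher and Ina (−0.49) and Synm (−0.94) lower. The medians of the intermediate filament and tubulin lists without the members in the 3 splits ran from −0.49 to 0.36, against −0.01 to 0.01 over all genes tested.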

How the data were processed

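Single-cell RNA was measured in 4 droplet libraries. The deposited matrices hold counts of UMIs per gene and barcode, which the authors made with Cell Ranger (version 3.0.2 in the file headers); the study names the mm10 genome and the labels GRCm39, and the authors used Seurat 3.2 after that step. Members and gene lists were chosen with earlier results of these data known. Barcodes with more than 1000 genes and under 20% mitochondrial UMIs were kept, as 7493 cells. No doublet caller was run; an alternative left out the 5% of cells with the most UMIs. UMIs were summed per library and class and fitted with edgeR 4.0.16 (filterByExpr, TMM, quasi-likelihood) in R 4.3.3, with adjusted p under 0.05 as a call; genes that define a class were left out of its fit. Comparisons within libraries had the library as a term. The named genes are the 7 members, genes of fixed lists that passed or that a sentence needed, and the 5 nearest in profile to Nefm and Mobp. Levels are CPM within the class, with 0.5 added before a logarithm. Depth ran from 21136369 to 53579969 UMIs per library. Replicate numbers mark the experiment in the labels, and CTRL 1 and BU 1 deviated together across 17354 genes (r = 0.779). Fits were tested on simulated data: of genes changed by 1 on the log2 scale, 78.9% were called in the Eomes split, 77.4% in the cycling split and 74.7% in the Kit split, and 0% over all cells after busulfan without the block. The simulation used 1 common dispersion, gave libraries no differences other than depth, and changed no gene with very few UMIs. These rates therefore do not carry over to members with few UMIs. Nothing says that libraries of a group came from separate litters, so p-values measure the spread between these pools. Alternatives are DESeq2 1.42.0, other filters and scalings, other cell filters and classes, each library left out, and, added after the data were seen, the shallower copies of shared barcodes left out.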

Additional observations from a re-analysis of the deposited data

How the results depend on the processing

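The counts of genes called moved with the settings more than the values of the 7 genes did. Between busulfan and untreated libraries edgeR with treatment alone called 0 genes in all cells, Gfra1+ cells and Sox3+ cells. DESeq2 called 112, 15 and 323, and the replicate block 258, 10 and 1061; without the filter on low counts 49 were called in Gfra1+ and 351 in Sox3+ cells. Leaving out 1 library gave 0 to 96, 0 to 25 and 10 to 915, the lone library of a group being assumed to vary like the other group. In the cycling split, 2033 became 1317 with DESeq2, 3108 without the filter, 1104 without cells of other types, 278 with classes after thinning and 1075 with the replicate block of experiment only, and 466 to 2135 without 1 library. In the Eomes split, 883 became 328, 495, 378 and 246 with DESeq2, without cells of other types, after thinning and with that block, and 419 to 755 without 1 library. In the Kit split, 3547 became 1973, 1799 and 2053 with DESeq2, after thinning and with that block, and 1438 to 3891 without 1 library. The interaction called 15 genes without the filter, 19 without cells of other types and 0 to 88 without 1 library. The cause of these moves was not tested, and the number of genes or samples entering a fit also differed between settings.

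Of 262 fits of single members, 223 kept direction and side of the threshold. All 9 that reversed concerned differences that had not passed: in the cycling split Mobp read 0.0800 after thinning, Sntg2 0.28 without BU replicate 2 (−1.12 at the other end, without CTRL replicate 1), and Tubb2b −0.25 without the cells of most UMIs, −0.17 without cells of other types and −0.36 without BU replicate 2 (0.33 without CTRL replicate 2), and in the Kit split Nefl read 0.12 with DESeq2 and Chga 0.0145 with DESeq2, 0.36 after thinning and 0.28 without BU replicate 2 (−0.56 without CTRL replicate 2). Classes set after thinning cost Nefm its call in the cycling split (adjusted p = 0.0693), Chga (0.396), Nxph4 (0.0540), Mobp (0.867) and Tubb2b (0.706) theirs in the Eomes split, and Tubb2b (0.294) in the Kit split. The Gfra1+ less Sox3+ log2 level of Sntg2 moved to −2.74 after thinning. The log2 ratio of treated to untreated shares of cells, not thinned, was 1.60 for Nefm, 1.73 for Chga and −2.74 for Mobp. With 2 libraries a group, and few UMIs of Mobp, Sntg2 and Nxph4 in the classes where they are low, small differences were not detectable.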
